A study of Mus musculus with 8 samples.

Results

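The 84 genes described here encode proteins of the cytosolic ribosome of the mouse. They are the protein-coding genes of the GENCODE annotation whose symbol is Rpl or Rps with a number, or Rplp0, Rplp1, Rplp2 or Rpsa, and they were chosen by name among the 54232 gene IDs of the count table. Of them, 52 belong to the large subunit (Rpl and Rplp) and 32 to the small subunit (Rps and Rpsa). RNA-seq counts of splenic natural killer (NK) cells, innate lymphocytes that kill without a rearranged receptor, were compared with counts of splenic CD8+ T cells, the killer T cells. Both cell types came from untreated C57BL/6 mice of 8-12 weeks with the genotype Tyk2 knockout (Tyk2-/-, on a C57BL/6N background by the study's methods), which lack the Janus kinase TYK2 in all cells, and were taken directly after sorting (homeostatic). Each of the 3 libraries per cell type pooled the spleens of 3 littermates, and 500 pg of RNA were amplified by Smart-seq2 before single-end sequencing of 50 bases. WT CD8+ T cells were not analysed here, since 3 sets of counts carry that name against 2 labelled samples, so that no effect of TYK2 was tested and every result below is a difference between cell types that share the deletion.

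The eukaryotic ribosome reads mRNA on its small subunit and joins amino acids on its large subunit, each subunit being ribosomal RNA with a shell of proteins present in a single copy, apart from the stalk proteins. The genes of these proteins are transcribed strongly in nearly every cell, and their mRNAs begin with a run of pyrimidines through which mTOR signalling controls their translation. Resting lymphocytes hold few ribosomes and make many more upon activation. In mammals most of these genes also have processed pseudogenes, copies of the spliced mRNA inserted elsewhere in the genome. A read that matches a gene and a copy equally well was not counted, since the deposited counts are of uniquely aligned reads in exons.

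How far a short read can be assigned was therefore computed for each gene from the GENCODE transcripts, as the share of all 50-base windows of its coding sequence that also occur, on either strand, in a transcript of another gene. The first 90 coding bases of 4 genes are shown because they span the range of this share. A capital marks a base at which such a shared 50-base window starts. Positions are those of the genes in GRCm38.
Rps6, chr4:86854660-86857412, minus strand: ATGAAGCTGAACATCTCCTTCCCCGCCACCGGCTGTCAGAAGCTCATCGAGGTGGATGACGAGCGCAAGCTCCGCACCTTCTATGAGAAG
Rpl5, chr5:107900502-107909005, plus strand: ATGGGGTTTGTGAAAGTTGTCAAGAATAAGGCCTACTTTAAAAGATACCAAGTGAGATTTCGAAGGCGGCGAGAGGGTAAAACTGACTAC
Rplp0, chr5:115559467-115563727, plus strand: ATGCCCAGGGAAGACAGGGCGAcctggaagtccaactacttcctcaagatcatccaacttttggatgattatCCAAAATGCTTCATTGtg
Rpl8, chr15:76904078-76906314, plus strand: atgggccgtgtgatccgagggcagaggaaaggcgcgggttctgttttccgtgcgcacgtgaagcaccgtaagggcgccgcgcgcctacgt

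In Rps6, Rps29 and Rpl5 every coding window was shared (698 of 698, 119 of 119 and 842 of 842). Single processed pseudogenes held all of them, namely Rps6-ps4 for Rps6, Gm14303 for Rps29 and Gm15500 for Rpl5. In Rplp0, the core protein of the stalk, 60.3% of the windows were shared and in Rpl8 8.73%. These genes recur below.

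For Tyk2, the targeted gene, CD8+ T cell libraries 1 to 3 held 105, 919 and 554 raw counts, against 3864, 4245 and 3207 in the NK cell libraries. The counts are per gene and not per exon, so that they do not check the deletion. Total counts ranged from 20957384 to 26144478 in CD8+ T cells, and NK cell libraries held 32848432 to 38573550. The labelled cell types were checked against their markers. Ncr1, which defines NK cells, was at 0 in each CD8+ T cell library and at 137008 to 195219 counts in NK cells. Cd8b1, a chain of the CD8 receptor, was at 0 in each NK cell library and reached 60044 to 80266 counts in the T cells. All 5 NK cell markers were called higher in NK cells, and 4 of 5 CD8+ T cell markers lower. Among other cell types, the B cell markers Ms4a1 and Cd79a had 405 and 347 raw counts in CD8+ T cell library 1 and at most 17 in any other library, and Pax5 was at 0 in every CD8+ T cell library. The 4 neutrophil markers were at 0 in every library. The 4 myeloid markers summed to at most 2.45 normalised counts in a T cell library, against 326 to 464 in NK cells, most of it Itgam, an integrin that NK cells also carry. The 4 erythroid markers stayed between 1.94 and 53.6 normalised counts, the 4 platelet markers reached 533 in 1 CD8+ T cell library and 122 in an NK cell library, and Cd4 and Foxp3 together stayed at or below 36.003. The part of these other cells in the results was not tested.

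Ribosomal protein genes took a smaller part of the counts in NK cells. In CD8+ T cells they held 6.76%, 11.3% and 8.95% of the total count in libraries 1 to 3, against 2.19%, 2.18% and 2.01% in NK cells. Every NK cell library was thus below every CD8+ T cell library, and the means were 8.997% ± 2.26 (SD, n = 3) against 2.13% ± 0.0999 (SD, n = 3). An exact two-sided permutation test of 3 against 3 libraries cannot give a p below 0.1, so none is used for these shares. A few other genes held more of the NK cell counts, since the 100 other genes of highest mean share took 35.7% to 38.6% of them but 19.8% to 21.7% of the CD8+ T cell counts. Without these 100 genes in the total, the ribosomal protein genes held 11.3% (CD8+ T cells) and 3.38% (NK cells). In bulk RNA, less ribosomal mRNA per cell and fewer cells with much of it cannot be told apart. Whether the part of their reads that aligned uniquely differed between the cell types was not tested.

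**Figure D1:**
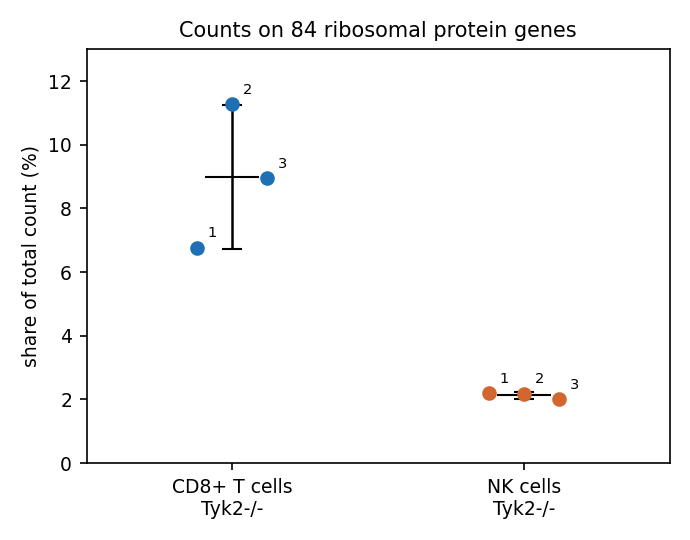
Share of the total count (y axis, percent) on the 84 ribosomal protein genes in the 3 libraries of each Tyk2-/- cell type (points, numbered by library), with mean and SD as bars. The NK cell libraries lie between 2.01% and 2.19%, and the CD8+ T cell libraries spread from 6.76% to 11.3%, library 1 being the lowest.

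Counts of all genes were then compared between NK cells and CD8+ T cells with edgeR's quasi-likelihood test, after TMM normalisation and with Benjamini-Hochberg adjustment over the 14062 genes of a mean normalised count of at least 10. A gene is called at an adjusted p below 0.05, and log2 fold changes are of NK cells over CD8+ T cells. Of the 84 ribosomal protein genes, 82 passed the filter (Rpl3l, with no count in any library, and Rpl10l, with 2 counts in 1 NK cell library, did not). Of the 82, 59 were called lower in NK cells, 0 were called higher and 23 were not called. Over all genes tested, 11.4% were called in either direction and 5.14% were called lower in NK cells. The median log2 fold change was -2.91 for the ribosomal protein genes and 0.10 for all genes tested. With DESeq2, 64 were called lower and 0 higher, and Rpl8 was the 1 gene higher in NK cells at an unadjusted p below 0.05. Without any one NK cell library 46 or 47 were called lower, and over all genes 240 to 246.
Genes of both subunits were among those called. In the large subunit 34 of 50 tested genes were called lower with a median log2 fold change of -2.63, and in the small subunit 25 of 32 with a median of -2.95. In 68 of the 82 genes every NK cell library was below every CD8+ T cell library, which held for 16.1% of all genes tested. Only Rpl8 and Rpl36al had all NK cell libraries above all CD8+ T cell libraries, and in the other 12 the libraries overlapped.

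**Figure D2:**
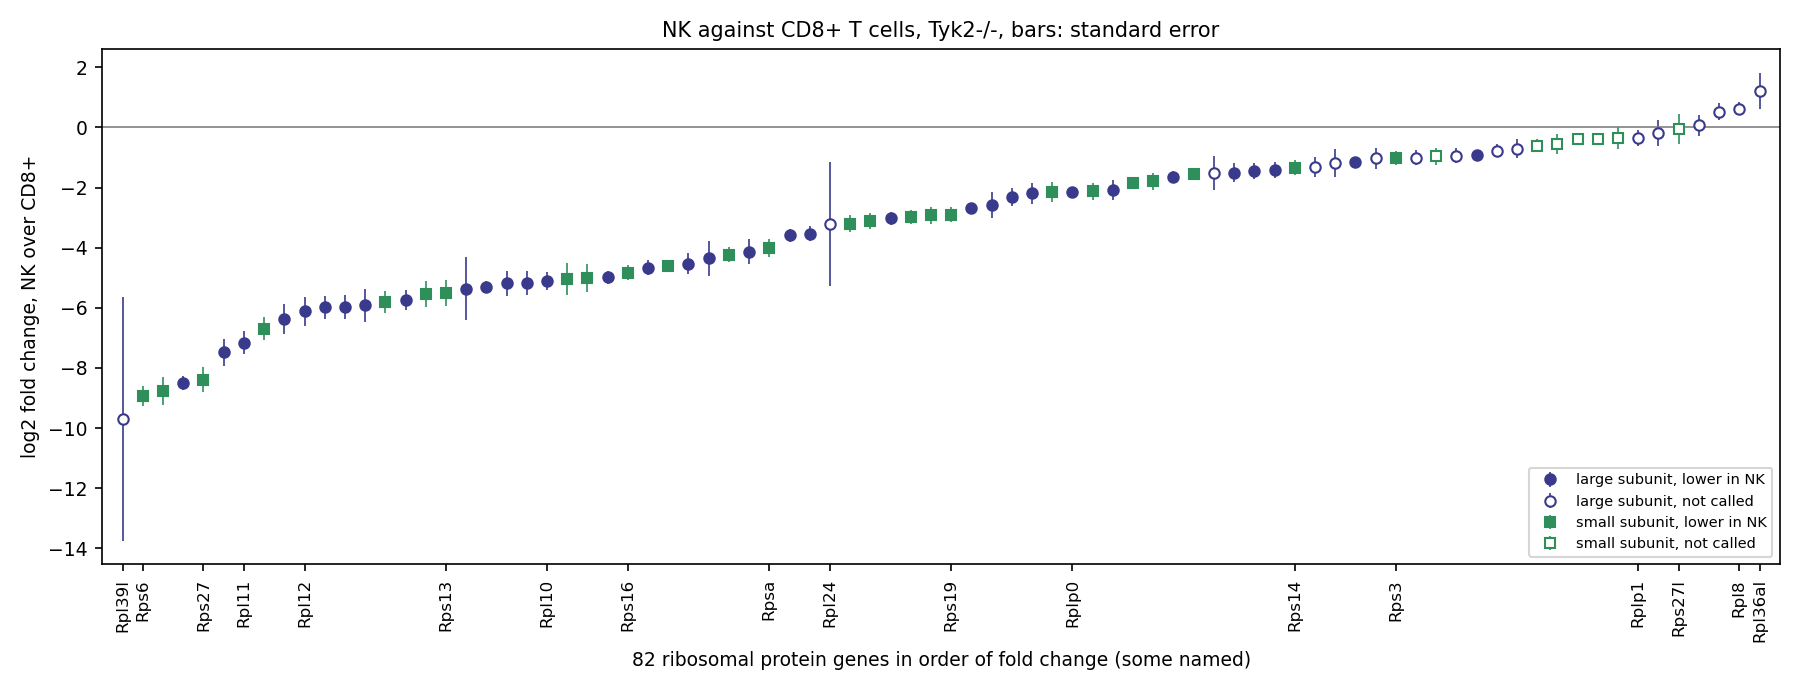
Log2 fold change (y axis, NK over CD8+ T cells) for the 82 tested ribosomal protein genes in order of size, with standard errors as bars. Circles are large and squares small subunit genes, and filled symbols are the 59 called lower in NK cells. The called genes run from -8.93 to -0.91, and the 4 genes above 0 are not called.

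The size of the difference varied by far more than its error from gene to gene. The largest among the called genes was that of Rps6, the small subunit protein that is phosphorylated by S6 kinases downstream of mTOR. Its raw counts were 16646, 28333 and 24923 in CD8+ T cells against 50, 63 and 67 in NK cells, so that it was nearly lost from the NK cell counts. The log2 fold change was -8.93 (SE 0.33, adjusted p = 0.00017), a level 489-fold lower in NK cells. Rps29, a small zinc-binding protein of the small subunit, had 9719, 22476 and 23277 counts in CD8+ T cells against 40, 62 and 57 in NK cells (log2 fold change -8.76, SE 0.46). Rps27, another zinc-binding protein of the small subunit, had 59615, 131632 and 98474 against 299, 360 and 434 (-8.39, SE 0.42). Per kilobase of exon Rps27 was the highest of the 84 genes in CD8+ T cells and ranked 52 of 84 in NK cells.

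Rpl5 and Rpl11, which together with 5S RNA form a large subunit particle that can also bind MDM2 and stabilise p53, fell together. Rpl5 had 30889, 40357 and 51958 counts in CD8+ T cells against 137, 135 and 150 in NK cells (log2 fold change -8.49, SE 0.24, edgeR adjusted p = 0.000119). Rpl11 had 11714, 22759 and 20012 against 140, 138 and 200 (-7.16, SE 0.39). In both genes the NK cell libraries were close to each other and far below the lowest CD8+ T cell library. Below a log2 fold change of -6 there were 5 further genes, namely Rpl36a (-7.47), Rps23 (-6.69), which lies at the decoding centre, Rpl9 (-6.37), Rpl12 (-6.12) and Rpl39l (-9.71). Rpl39l is the exception among them, since its fold rests on 254 counts in CD8+ T cell library 2, with 1 and 0 in the other two and 0 in NK cells (SE 4.05, adjusted p = 0.193), and it was not called.

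At the other end, several genes of high level hardly differed. Rpl8, a large subunit protein beside the peptidyl transferase centre, had 26989, 45001 and 59088 counts in CD8+ T cells against 82128, 85619 and 80837 in NK cells, the reverse order of Rpl5. Its log2 fold change of 0.63 (SE 0.23) was not called (adjusted p = 0.121). Rplp1, of the stalk, had 24833, 50274 and 51390 against 39777, 43028 and 40881 counts (-0.35, SE 0.26) with overlapping libraries.

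**Figure D3:**
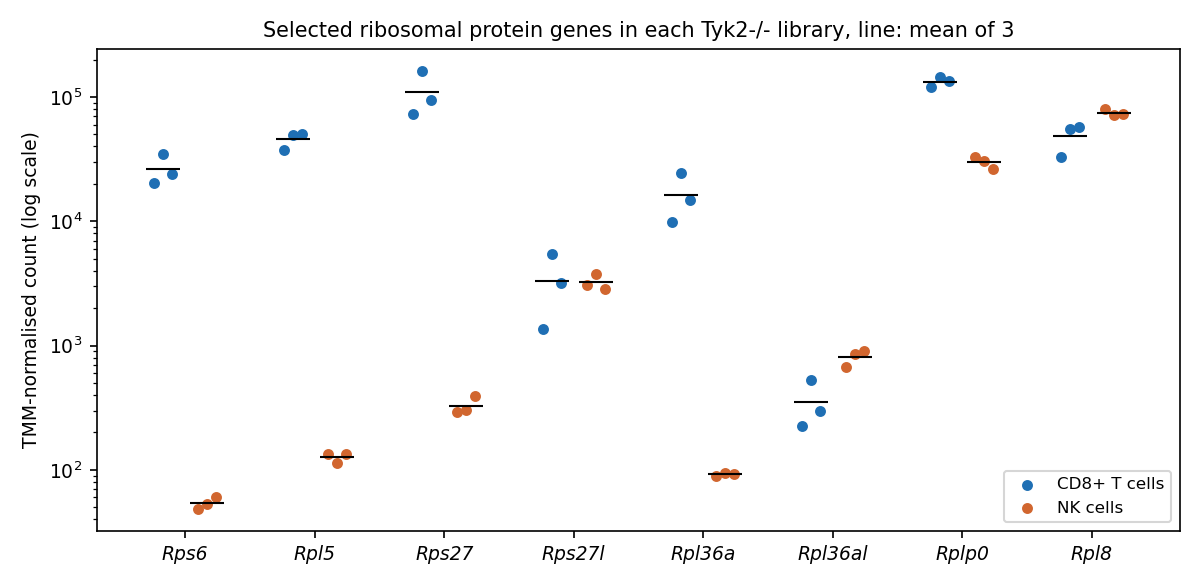
TMM-normalised counts (y axis, log scale) of 8 ribosomal protein genes in each library of Tyk2-/- CD8+ T cells and NK cells, with a line at the mean of 3. Rps6, Rpl5, Rps27 and Rpl36a lie more than 100-fold apart between the cell types, whereas the means of Rps27l and Rpl8 lie within 2-fold.

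The other called genes filled the range between these ends. Log2 fold changes from -6 to -5 were found, among others, for Rpl28 (-5.98), Rpl17 (-5.96), Rpl21 (-5.92), Rpl15 (-5.74), Rps28 (-5.53), Rps13 (-5.50), Rpl23a (-5.37), Rpl3 (-5.31), Rpl27 (-5.18), Rpl36 (-5.17), Rpl10 (-5.11), Rps12 (-5.04) and Rps27a (-5.01), the last encoding ubiquitin fused to a ribosomal protein. From -5 to -4 there were Rpl13 (-4.98), Rps16 (-4.83), Rpl19 (-4.66), Rps25 (-4.61), Rpl27a (-4.53), Rpl7a (-4.36), Rps18 (-4.23), Rpl31 (-4.13) and Rpsa (-4.01), the last also known as the laminin receptor precursor. From -4 to -2 there were, among others, Rpl35 (-3.59), Rpl10a (-3.53), Rps7 (-3.20), Rps4x (-3.12), Rpl6 (-3.02), Rps26 (-2.98), Rps19 (-2.90), Rpl22l1 (-2.57), Rpl34 (-2.31), Rpl37a (-2.20), Rps24 (-2.15), Rplp0 (-2.15), Rps3a1 (-2.12) and Rpl37 (-2.07). Above -2 the called genes were Rps2 (-1.85), Rps10 (-1.79), Rpl18 (-1.65), Rps9 (-1.56), Rpl38 (-1.50), Rpl32 (-1.44), Rpl26 (-1.42), Rps14 (-1.33), Rpl4 (-1.16), Rps3 (-1.02) and Rpl14 (-0.91). In all, 50 of the 82 were at -2 or lower, 33 at -4 or lower and 10 at -6 or lower.

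Some of these genes are known from disease or from a function beyond general translation. Rps19, the gene most often mutated in Diamond-Blackfan anaemia, had 47230, 84080 and 80711 counts in CD8+ T cells against 11682, 12902 and 10875 in NK cells (adjusted p = 0.00115). Rps14, whose loss underlies the anaemia of the 5q- syndrome, had 91076, 174124 and 148027 against 64964, 73312 and 67989 (adjusted p = 0.0198). Rps3, which also binds NF-kappaB, had 38306, 64775 and 85635 against 35064, 42055 and 37773 (adjusted p = 0.0399). In each of these genes every CD8+ T cell library was higher after normalisation. Rpl38, which is needed for translation of Hox mRNAs, had 4903, 10999 and 9559 against 3305, 3936 and 4066 (adjusted p = 0.0319). Rpl13a, a part of the interferon-gamma-activated inhibitor of translation, had 864, 620 and 919 against 770, 1080 and 821, with overlapping libraries (log2 fold change -0.18, SE 0.44).
The stalk of the large subunit recruits the elongation factors. Rplp0 had 98855, 117222 and 138108 counts in CD8+ T cells against 33507, 36698 and 29223 in NK cells, a level 4.45-fold lower (edgeR adjusted p = 0.000596). Rplp2 had 5649, 9545 and 12166 against 4793, 6097 and 5943 (-1.01, SE 0.25, adjusted p = 0.0523), while its partner Rplp1 overlapped as given above. In the small subunit, Rpsa was 16.1-fold lower in NK cells, with 8133, 13826 and 15891 against 1059, 894 and 938 counts.

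Paralogues in the set, which encode close relatives of a ribosomal protein, had fold changes unlike those of their partners in several pairs, although the difference between partners was not tested. For Rps27 and Rps27l, the latter a paralogue induced by p53, and for Rpl36a and Rpl36al, the first 90 coding bases are shown because the pairs encode nearly the same protein from different letters. Capitals mark the bases that differ between the 2 genes of a pair.
Rps27, chr3:90212522-90213651, minus strand: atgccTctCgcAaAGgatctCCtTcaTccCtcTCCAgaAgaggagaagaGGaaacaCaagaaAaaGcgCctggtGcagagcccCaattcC
Rps27l, chr9:66946086-66949516, plus strand: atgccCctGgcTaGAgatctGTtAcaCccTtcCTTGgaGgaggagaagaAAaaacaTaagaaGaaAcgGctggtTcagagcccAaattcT
Rpl36a, chrX:134585654-134588062, plus strand: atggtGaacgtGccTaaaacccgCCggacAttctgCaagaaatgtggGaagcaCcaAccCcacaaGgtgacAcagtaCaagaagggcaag
Rpl36al, chr12:69182731-69184083, minus strand: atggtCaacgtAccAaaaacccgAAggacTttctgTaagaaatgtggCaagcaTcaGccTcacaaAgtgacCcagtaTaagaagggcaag

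Over the whole coding sequence Rps27 and Rps27l were identical at 76.2% of 252 bases and Rpl36a and Rpl36al at 87.7% of 318, and neither pair shared a 50-base coding window, so that coding reads of 50 bases can tell the 2 partners from each other. Rps27l had 1116, 4424 and 3312 counts in CD8+ T cells against 3129, 4518 and 3175 in NK cells (log2 fold change -0.05, SE 0.49), against the 335-fold lower level of Rps27. Rpl36al had 186, 428 and 309 against 697, 1029 and 1007 (1.22, SE 0.61, adjusted p = 0.221), the highest fold of the 82 genes, and Rpl36a had 8018, 20069 and 15273 against 91, 113 and 104. In NK cells Rps27l thus outnumbered Rps27, with 3228 ± 491 against 328 ± 54.5 normalised counts (SD, n = 3), and Rpl36al outnumbered Rpl36a, with 815 ± 121 against 92.2 ± 3.24. In CD8+ T cells the order was the opposite, with 109887 ± 46018 for Rps27 against 3332 ± 2033 for Rps27l. These are levels per gene and not per length. Reads that match another gene equally well are missing from these levels. Of the coding windows, 90.6% in Rps27 and 33.6% in Rps27l are shared with other genes, and 100% in both Rpl36a and Rpl36al. The order of the partners' mRNA was therefore not tested.

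Other pairs gave smaller contrasts. Rpl22, which is needed for the development of alpha-beta T cells, had 2106, 7141 and 5875 counts in CD8+ T cells against 3142, 2833 and 2298 in NK cells, with overlapping libraries (-1.18, SE 0.46, adjusted p = 0.14). Its paralogue Rpl22l1 was called lower, with 2694, 6837 and 3854 against 897, 1134 and 857 (adjusted p = 0.0149). Rpl7 (-0.77, SE 0.22) and Rpl7l1 (0.53, SE 0.28) had opposite signs and neither was called. Rpl3 and Rpl10 were called, whereas their tissue-restricted paralogues Rpl3l and Rpl10l, known from muscle and testis, were at or below the floor of 3 counts in every library. Rpl39 had 846, 3512 and 1913 against 737, 1012 and 1046 counts (-1.52, SE 0.56, adjusted p = 0.127).

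Apart from Rpl24, the remaining genes that were not called had log2 fold changes between -1.31 and 0.07. Among them were Rpl23 (-1.31), Rpl35a (-1.02), Rps20 (-0.96), Rpl29 (-0.95), Rpl41 (-0.70), Rps15 (-0.61), Rps15a (-0.55), Rps21 (-0.36) and Rpl30 (0.07). In Rpl23, Rpl35a, Rps20, Rpl29 and Rps15 the libraries did not overlap, and in the others they did. Rpl24 could not be read in these counts. It had 40, 10 and 1 counts in CD8+ T cells against 1, 0 and 6 in NK cells, for a log2 fold change of -3.21 (SE 2.07, adjusted p = 0.334), and 71.5% of its exon bases overlap Gm28037, a gene annotated on the same strand, which had 0 counts in every library. Genes on the same or the opposite strand also overlap 54.9% of the exon bases of Rpl13a, 55.4% of Rpl23a, 55.0% of Rpl30, 54.3% of Rps10, 48.7% of Rps25 and 46.6% of Rpl5. How overlapping genes and strand were treated in the counting is not given in the sources used here, so the values of these genes are uncertain.

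The shared coding sequence went along with the size of the difference. Of the 25 tested genes in which every coding window was shared with another gene, 23 were called lower in NK cells, with a median log2 fold change of -5.53. The 2 not called were Rpl24 and Rpl36al, the latter sharing 254 of its 269 windows with Gm49383, a gene that overlaps it and had 0 counts in every library. Between 80% and 100% shared windows the median was -2.92 in 29 genes (21 called), between 50% and 80% it was -1.82 in 14 genes (11 called), between 10% and 50% it was -0.66 in 10 genes (3 called), and up to 10% it was -0.70 in 4 genes (Rps3, Rpl8 and Rpl39l among them), of which Rps3 was called. Over 80 genes, without Rpl39l and Rpl24 whose counts are near 0 in most libraries, the rank correlation of log2 fold change and shared coding windows was -0.74 (Spearman; Pearson's r = -0.63). Over all 82 it was -0.68. The measure planned first, over all transcript windows with untranslated ends included, gave -0.51 over the 80 genes, and the coding windows were taken up after seeing the data. The points share all 6 libraries and are not independent, so these values are a description.

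**Figure D4:**
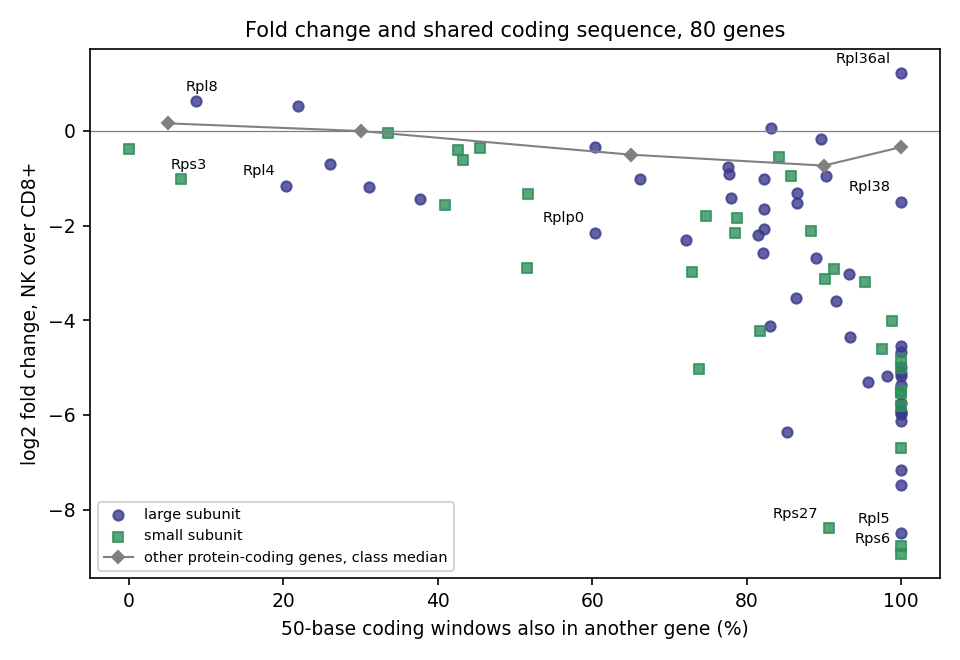
Log2 fold change (y axis, NK over CD8+ T cells) against the percentage of a gene's 50-base coding windows that also occur in a transcript of another gene (x axis), for 80 ribosomal protein genes. Grey diamonds are class medians of the other protein-coding genes, drawn at a point within each class. Among genes with few shared windows, Rpl8 lies at 0.63 and Rps3, called lower in NK cells, at -1.02. Most genes at 100% lie below -4, with Rpl38 and Rpl36al as exceptions.

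The relation was seen in the levels of NK cells more than in those of CD8+ T cells. Over the same 80 genes, the rank correlation of shared coding windows with the level per kilobase of exon was -0.77 in NK cells but -0.27 in CD8+ T cells. Among the 82 tested genes the 90th percentile of the level per kilobase was 268 times the 10th percentile in NK cells and 19.3 times in CD8+ T cells. The 5 highest genes per kilobase in NK cells included Rplp1, Rpl8, Rps14 and Rpl4, and in CD8+ T cells Rps27, Rps14, Rpl4, Rplp0 and Rplp1. Averaged over both cell types, Rplp1, Rps14, Rpl4 and Rpl8 were among the 5 highest, and Rpl3l, Rpl10l, Rpl24, Rpl39l and Rpl23a lowest. With the shortest coding transcript as the length, Rps14 was the highest gene in NK cells and Rps27 stayed the highest in CD8+ T cells. In both cell types the order of genes was stable between libraries, with a lowest rank correlation of 0.99 between NK cell libraries and 0.98 between CD8+ T cell libraries.

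Among the other protein-coding genes the relation was weak, with a rank correlation of -0.08 over 10848 genes. Their median log2 fold change was 0.16 in 8900 genes with up to 10% of shared coding windows, -0.50 in 379 genes between 50% and 80%, -0.73 in 242 genes between 80% and 100% and -0.34 in 84 genes at 100%. Among genes with a mean of at least 1000 normalised counts in CD8+ T cells the median was -0.33 in 3462 genes up to 10%, -1.46 in 78 genes between 80% and 100%, and -0.71 in 16 genes at 100%. At each of these shares the ribosomal protein genes were further down. Whether the assignment of reads, rather than the amount of mRNA, set these differences was not tested, since reads that align to several places are not in the counts.

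Counts on the copies themselves were few. In the annotation 1055 pseudogenes share a coding window with a ribosomal protein gene. Together they held 0.0811%, 0.150% and 0.105% of the total count in the CD8+ T cell libraries against 0.0470%, 0.0484% and 0.0463% in NK cells. Of the 249 that passed the filter, edgeR called 4 lower in NK cells and 0 higher, with 2 higher at an unadjusted p below 0.05 and 5 higher by DESeq2. Rps6-ps4, which carries every coding window of Rps6, had 13, 37 and 48 counts against 9, 12 and 11. Gm15500, which carries every coding window of Rpl5, had 349, 474 and 462 against 393, 544 and 530 counts, which in each NK cell library is more than Rpl5 itself.

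Within a cell type, the ribosomal protein genes were alike in NK cells and uneven in CD8+ T cells. The median coefficient of variation over the 82 genes was 0.0758 in the 3 NK cell libraries and 0.304 in the 3 CD8+ T cell libraries, against 0.352 and 0.751 over all genes tested. In CD8+ T cells 75 of the 82 genes were lowest in library 1 and 72 were highest in library 2, whereas in NK cells 26, 20 and 36 genes were lowest in libraries 1, 2 and 3. Library 1 is also the one with B cell markers, whose part in this was not tested. The genes that varied most between CD8+ T cell libraries were Rpl39l, Rpl24 and Rpl39, and between NK cell libraries, among the tested genes, Rpl24, Rpl23a and Rpl21 (342, 849 and 290 counts). Without CD8+ T cell library 1, 64 genes were called lower in NK cells, and without library 2 or 3 it was 58 and 56.

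The shortfall of CD8+ T cell library 1 was greater in short genes. The ratio of its normalised counts to those of library 2 had a median of 0.432 in the 20 genes of shortest coding sequence (138 to 357 bases) and of 0.680 in the 20 of longest (633 to 1257 bases). Over 80 genes the rank correlation of this ratio with coding length was 0.72 (Pearson's r on log scales = 0.66). For library 3 over library 2 it was 0.42. In NK cells the ratio of library 1 to library 2 gave 0.21, and in 5746 other protein-coding genes of at least 100 normalised counts in each CD8+ T cell library the ratio of library 1 to 2 gave 0.12. These are descriptions over genes of the same libraries. Rpl7a and Rpl13a were the exceptions, with ratios of 1.62 and 1.39, and Rpl24 with 3.99 rests on 40 and 10 counts.

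**Figure D5:**
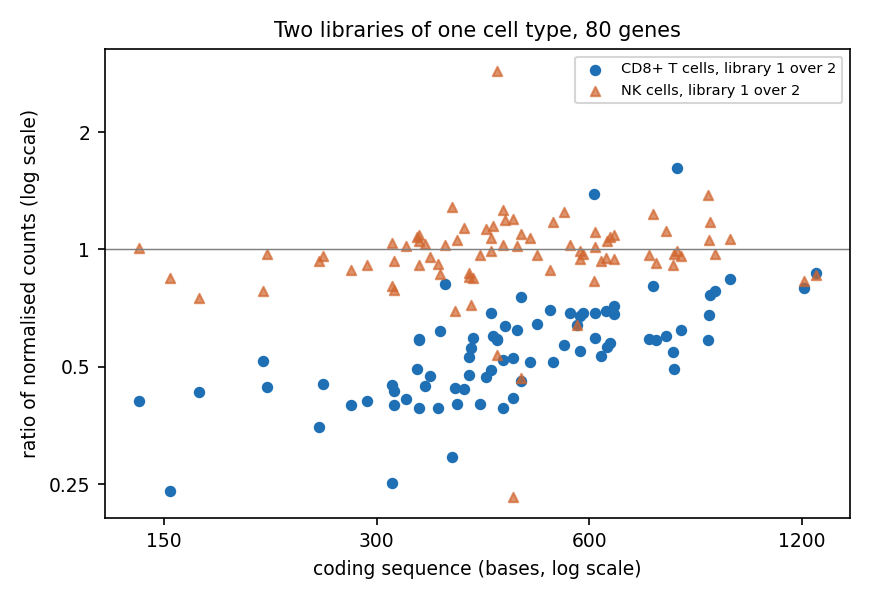
Ratio of normalised counts of library 1 to library 2 (y axis, log scale) against the length of the coding sequence (x axis, bases, log scale) for 80 ribosomal protein genes in CD8+ T cells (circles) and NK cells (triangles). The CD8+ T cell ratios rise with length from a median of 0.432 in the 20 shortest to 0.680 in the 20 longest, and most NK cell ratios lie near 1.

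Sequences at the start of transcription were looked at because the pyrimidine run at the first bases of these mRNAs is what the genes share. RefSeq windows (GRCm38.p6) were found for 64 of the 84 genes. A run of at least 6 C or T reaching within 5 bases of the annotated start, on the gene's own strand, was present in 32 of the 64 (50.0%) and in 24.0% of the 27025 genes with such a window. It was present in 25 of 47 genes called lower in NK cells and in 7 of 15 that were tested and not called. For Rps6 and Rps27, far apart between the cell types, and Rps27l and Rpl36al, which were not, 30 bases around the start are shown, with the longest run that reaches within 5 bases of the start in capitals. The start lies at base 16.
Rps6, chr4:86857353-86857382, minus strand: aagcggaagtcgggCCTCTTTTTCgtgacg
Rps27, chr3:90213634-90213663, minus strand: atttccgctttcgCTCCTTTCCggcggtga
Rps27l, chr9:66946071-66946100, plus strand: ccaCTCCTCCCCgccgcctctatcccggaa
Rpl36al, chr12:69184053-69184082, minus strand: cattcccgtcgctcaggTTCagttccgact

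By this measure Rps6 and Rps27l have runs of 10 and 9 bases, that of Rps27l lying wholly before the annotated start, and their log2 fold changes were -8.93 and -0.05. In Rpl36al the longest run that reaches within 5 bases of the start is of 3 bases. It is also of 3 bases in Rpl5, with a log2 fold change of -8.49, and of 4 bases in Rplp0, with -2.15.

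Other genes of the translation machinery were described from lists of known members. Of the 226 tested genes of these lists, 35 were called lower and 12 higher in NK cells. Among all genes tested, in the lists or not, 5.14% were called lower and 6.24% higher. With total count scaling 59 genes of the lists were called lower and 5 higher, and without any one NK cell library 12 or 13 and 1 or 2. Fau and Rack1, which complete the small subunit but lie outside the name rule, were called lower in NK cells. Fau, a ubiquitin-like fusion, had 29327, 53442 and 47237 counts in CD8+ T cells against 1396, 1957 and 1962 in NK cells (log2 fold change -4.95, SE 0.29), with 87.9% of its coding windows shared. Rack1 had 36229, 40493 and 59514 against 30300, 29045 and 29305 (-0.92, SE 0.16), with 1.44% shared.

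A further list held 18 genes outside the name rule, Rack1 among them, whose mRNAs start with such a pyrimidine run. Of these 18, 11 (Rack1 included) were called lower in NK cells and 2 higher, with a median log2 fold change of -1.80. Tpt1, the translationally controlled tumour protein, fell by 4.34 on the log2 scale (SE 0.31), and the splicing factor Hnrnpa1 (-4.38, SE 0.76), Eef1g (-3.06, SE 0.19), the nucleolar chaperone Npm1 (-2.95, SE 0.32), the long noncoding RNA Gas5 (-2.90, SE 0.26), the elongation factor Eef1a1 (-2.05, SE 0.19) and Pabpc1 (-2.03, SE 0.41), which binds poly(A) tails, fell as well. Tpt1 has all of its coding windows shared, and Eef1a1 has 72.6%. The 2 called higher were Eef1d (0.81, SE 0.17, adjusted p = 0.0308), with 7.64% shared, and the intermediate filament Vim (2.05, SE 0.21), which is named after its values were seen. Without any one NK cell library 6 of this list were called lower and 1 higher. Of 11 elongation and release factors 4 were called lower and 1 higher (median -1.55), among them Eef1b2 (-1.56) and Eef1e1 (-1.75), while Eef2, which moves the ribosome along the mRNA, was not called (-0.66, SE 0.26).

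Of 36 initiation factors 5 were called lower and 0 higher (median -0.88), namely Eif4a2 (-3.35), Eif4a1 (-2.83), Eif3m (-1.66), Eif4g2 (-1.58) and Eif4h (-1.54). Of 57 ribosome biogenesis factors 12 were called lower and 0 higher (median -1.16), the largest being Utp4 (-3.29), Npm1 (-2.95), Nmd3 (-2.61), an export adaptor of the large subunit, Emg1 (-2.36) and Utp15 (-2.34). Of the 12, 8 have no shared coding window (Utp4, Nmd3, Emg1, Utp15, Grwd1, Wdr43, Ltv1 and Dkc1, the last 3 and Grwd1 named after their values were seen). This held for 0 of the 59 called ribosomal protein genes. In the pyrimidine-run list the count was 0 of the 11 called genes. Gas5 and Snhg1 among these 11, the latter named after its values were seen, are annotated without a coding sequence, so the measure does not apply to them. The windows were compared with annotated transcripts and not with the genome. Without any one NK cell library the initiation factors called lower were 1, the biogenesis factors 4 or 5 and those of RNA polymerase I 1. At an unadjusted p below 0.05, 2 initiation factors, 1 biogenesis factor and 1 gene of the RNA polymerase I list were higher, and DESeq2 called 1 of each higher. Of 15 genes of RNA polymerase I and its transcription, 2 were called lower, Rrn3 (-3.50) and Polr1b (-3.02), and 0 higher (median -0.55). Of 21 tested regulators of ribosomal protein output, Pabpc1 was called lower and Mtor higher (1.74, SE 0.39, adjusted p = 0.0358), and neither call was made without any one NK cell library. Larp1, which binds the pyrimidine run, was not called (-1.21, SE 0.78), nor was Myc (-2.13, SE 0.78).

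The ribosomal proteins of mitochondria, which form a separate ribosome, had calls in both directions. Of 77 tested genes 4 were called lower and 9 higher, where 5.14% of all genes were called lower and 6.24% higher, with a median log2 fold change of -0.00 and a median of 0% shared coding windows. With total count scaling, which lowers all genes in NK cells, this became 7 lower and 4 higher with a median of -0.35, and without any one NK cell library 0 lower and at most 1 higher. Mrpl52 (1.99, SE 0.31) and Mrpl48 (1.63, SE 0.28) were higher in NK cells, and Mrpl23 (-2.88, SE 0.69), Mrpl50 (-2.49, SE 0.42) and Mrpl33 (-1.67, SE 0.32) lower. Genes of the mitochondrial genome were lower in NK cells in 8 of 18 tested (median -1.66), taking 1.55% ± 0.0686 of the counts in NK cells against 3.40% ± 1.13 in CD8+ T cells (SD, n = 3).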

How the data were processed

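Sorted splenic cells of Tyk2-/- mice were sequenced by RNA-seq in 3 libraries of NK cells and 3 of CD8+ T cells. Before deposit, the authors used Trimmomatic 0.32 for trimming and STAR 2.7.1 for alignment to mm10, and uniquely aligned reads in exons were counted with summarizeOverlaps in R 3.2.3. The deposited values are raw counts per gene, not normalised. The table has 104 columns, of which 6 entered the tests. The other 98 (3 of them WT CD8+ T cells) were left out. The columns used name the group but not the sample, so libraries are numbered 1 to 3 within a cell type. Of 54232 gene IDs, 54165 matched GENCODE vM21 (GRCm38), which also gave transcripts and positions. Whether the pooled litters differ between libraries of a group is not stated, so p-values measure the spread between these libraries only. The members and gene lists were chosen with earlier results of these data known.

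The test was the robust quasi-likelihood test of edgeR 4.0.16 (R 4.3.3) with TMM factors, over genes whose normalised counts averaged 10 or more, with Benjamini-Hochberg adjustment over all of them and a threshold of 0.05. DESeq2 1.42.0, RLE, total count and member-free TMM scaling, no filter, and leaving out each library were alternatives. Each SE was taken as the absolute log2 fold change over the square root of the F statistic of the edgeR test. The test was checked on simulated data. The floor of detection was set at 3 counts for counting error alone. Coding windows and the length of the shortest transcript were taken up after seeing the data. Windows of 50 bases were compared in Python 3.11.15 with pandas 2.3.3 and numpy 2.4.6. Named genes were all called members, the 8 largest fold changes, the extremes of level and spread, paralogue pairs, members at or under 3 counts, stalk proteins, Rpsa and 7 members known from disease or regulation, and up to 5 called genes per list. A few of these genes are not reported here by name, though they enter every count and median.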

Additional observations from a re-analysis of the deposited data

How the results depend on the processing

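With all libraries kept, the 59 genes called lower in NK cells stayed called under RLE scaling, total count scaling, TMM factors without the ribosomal protein genes, DESeq2 and no filter, and 59 to 66 ribosomal protein genes were called. Leaving out 1 library gave 46 to 64, and 46 of the 59 stayed called in every alternative run. The 13 genes lost at times were Rpl14, Rpl22l1, Rpl23a, Rpl26, Rpl32, Rpl37, Rpl37a, Rpl38, Rps10, Rps14, Rps24, Rps3 and Rps3a1. Among genes not called, Rpl23, Rpl29, Rpl7, Rplp2, Rps15 and Rps20 were among those called lower under at least 1 setting that kept all libraries. Of the genes near 0, Rps27l turned to 0.0143 with RLE and with DESeq2, and Rpl30 to -0.279 with total count scaling. Leaving out 1 library gave -0.422 to 0.526 for Rps27l, -0.193 to 0.562 for Rpl30 and -0.667 to 0.0747 for Rps21. Total count scaling moved the median of all genes to -0.27 and that of the ribosomal protein genes to -3.26.

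Over all genes, 723 were called lower and 877 higher in NK cells. Total count scaling gave 1112 lower and 751 higher, and DESeq2 1597 and 2132. Leaving out 1 library gave 240 to 741 lower and 236 to 1205 higher, the low values (up to 246 and 239) coming without an NK cell library. Of the 226 tested genes of the translation lists, 35 were called lower and 12 higher, 59 and 5 with total count scaling, 69 and 22 with DESeq2, and 12 to 41 and 1 to 15 with 1 library left out. The share of counts was 11.3% and 3.38% without the 100 other genes of highest mean share. The cause of these shifts was not tested.

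No paired analysis was possible because no sample's replicate number is given in the columns, and NK cells and CD8+ T cells have no number in common. The fits with WT CD8+ T cells were not run. All calls rest on 3 libraries a group, and differences at counts of 3 or fewer are not detectable.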
